A study of Rattus norvegicus with 9 samples.

Results

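The insulin-like growth factor (IGF) system is described here through 10 genes, taken by symbol from a table of 37209 genes by a rule that uses no measured value. They are the ligands Igf1 and Igf2, the receptors Igf1r, Igf2r and Insr, the receptor substrates Irs1 and Irs2, and the binding proteins Igfbp2, Igfbp4 and Igfbp5. All 10 were among the 16837 genes that passed the filter on low counts. RNA came from the frontal cortex of 9 male Wistar rats aged 14 weeks, with 3 rats in each of 3 groups. Control rats (A1, A2 and A6) stayed with undisturbed mothers until weaning. MS rats (B3, B4 and B6) underwent neonatal maternal separation of 4 h per day from postnatal day (PND) 1 to PND 21. MS+EA rats (C3, C10 and C16) had the same separation and received electroacupuncture (EA) at the scalp and forehead acupoints GV20 and GV29 on alternate days between PND 61 and PND 81. According to the labels all groups were anaesthetised in that period. Rats given EA without MS and rats given sham EA were not analysed here, so EA cannot be told apart from the handling that goes with it. The MS rats stand for a model of early life stress, and the labels give neither litters nor batches, so rats of a group may share a litter.

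IGF1 and IGF2 are small secreted proteins related to insulin. Both act on the receptor tyrosine kinase encoded by Igf1r, which together with the insulin receptor (Insr) signals through the adaptor proteins IRS1 and IRS2 to the PI3K-Akt and Ras-MAPK cascades, whereas the protein of Igf2r takes IGF2 into lysosomes. The binding proteins hold IGFs in the extracellular space and set how much ligand reaches the receptors. In the adult brain, IGF1 comes from neurons, glia and the circulation, while Igf2 is known for strong expression in the leptomeninges and the choroid plexus.

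The results turn on Igf1, Igf2 and Igfbp2, and the 250 bases before their RefSeq starts are given for that reason, read 5′ to 3′ on the strand of the gene in the build GRCr8. The windows are chr7:24172282-24172531 on the plus strand for Igf1, chr1:207253981-207254230 and chr1:207250476-207250725 on the minus strand for the starts of Igf2 listed there, and chr9:81864561-81864810 on the plus strand for Igfbp2. Capitals mark the GC box GGGCGG, one of 3 motifs searched on both strands.
Igf1: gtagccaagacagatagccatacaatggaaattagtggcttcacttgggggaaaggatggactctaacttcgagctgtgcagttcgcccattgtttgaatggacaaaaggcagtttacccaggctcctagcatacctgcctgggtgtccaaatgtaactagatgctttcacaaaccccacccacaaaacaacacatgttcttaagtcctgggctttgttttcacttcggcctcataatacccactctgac
Igf2, upstream start: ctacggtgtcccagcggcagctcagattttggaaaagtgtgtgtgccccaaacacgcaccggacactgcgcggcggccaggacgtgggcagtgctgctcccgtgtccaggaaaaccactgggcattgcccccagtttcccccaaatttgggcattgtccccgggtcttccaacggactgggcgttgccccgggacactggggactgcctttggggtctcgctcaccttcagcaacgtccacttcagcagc
Igf2, downstream start: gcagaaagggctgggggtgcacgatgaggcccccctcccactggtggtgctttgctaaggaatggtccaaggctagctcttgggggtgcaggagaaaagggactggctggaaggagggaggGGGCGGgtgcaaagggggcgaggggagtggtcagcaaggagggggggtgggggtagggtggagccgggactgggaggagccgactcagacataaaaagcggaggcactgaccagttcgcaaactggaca
Igfbp2: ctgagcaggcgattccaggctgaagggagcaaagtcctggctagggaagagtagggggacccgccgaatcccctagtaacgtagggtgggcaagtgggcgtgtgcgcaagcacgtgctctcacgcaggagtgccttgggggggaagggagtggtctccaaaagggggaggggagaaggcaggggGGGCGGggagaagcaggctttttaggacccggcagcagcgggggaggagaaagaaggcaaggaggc
Of the 10 members, 9 had such a sequence, and Irs2 had none. A GC box lay in the windows of 5 of these 9, against 30.5% of 33469 rat promoter windows of this length. The TATA box letters TATAAA lay in the window of 1 member, Igfbp4, and in 12.9% of all windows. CCAAT lay in 0 of the 9 and in 34% of all windows. These matches describe letters in a window and were not measured as binding.

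Library totals ran from 16153292 to 19007907 counts for Control, from 16106381 to 17243320 for MS and from 12479905 to 14913736 for MS+EA, so the MS+EA libraries were the shallowest. Markers of the labelled tissue were present in every rat, with a sum of 3386 to 4529 CPM, the counts of a gene scaled to a TMM-normalized library of 1000000, over 6 markers of cortical excitatory neurons. The sum of 6 striatal markers varied little between rats, from 200 to 228 CPM. There were 4 libraries that stood apart in the sum over a list of 11 genes of leptomeninges and fibroblasts. The sum was 468 CPM in MS rat B4 and 112 CPM in MS rat B6. It was 260 CPM in MS+EA rat C16 and 175 CPM in MS+EA rat C3, against 51.4 to 69.5 CPM in the other 5 rats. Col1a1, Col3a1 and Fmod of this list were highest in the same 4 rats. Not every gene of the list was, with Dcn at 14.7 CPM in Control rat A1 and 6.79 CPM in MS rat B6.

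Igf1 and Igf2 were higher in every MS rat than in every Control rat, Igfbp2 was uneven among rats, and receptors and substrates stayed within narrow intervals around no difference. Igf1 was the sole member past both thresholds used throughout, which were 0.05 for the adjusted p and 1.5 for the fold change in either direction (edgeR quasi-likelihood test, Benjamini-Hochberg over all genes tested), and it passed in MS+EA relative to Control. Between MS and Control rats 0 of 10 members passed, beside 0.0238% of all tested genes, while 3 members (Igf1, Igf2 and Igfbp2, all higher) had an unadjusted p under 0.05 against 10.6% of all genes. The DESeq2 Wald test called 1 member in this comparison, Igf1, and limma-voom called 0. The groups did not overlap in 2 members, Igf1 and Igf2, against 17.6% of all genes. Between MS+EA and MS rats 0 members passed, beside 0.0178% of all genes, 1 member (Igfbp4, lower) had an unadjusted p under 0.05 against 12.4%, and 0 members were free of overlap against 17.9%. DESeq2 and limma-voom also called 0 members there. Between MS+EA and Control rats 1 of 10 members passed against 1.37% of all genes, 3 had an unadjusted p under 0.05 against 22.5%, and 5 did not overlap against 25.9%. The comparisons with Control share the Control rats, and those with MS share the MS rats, so their counts are not independent of each other.

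**Figure D1:**
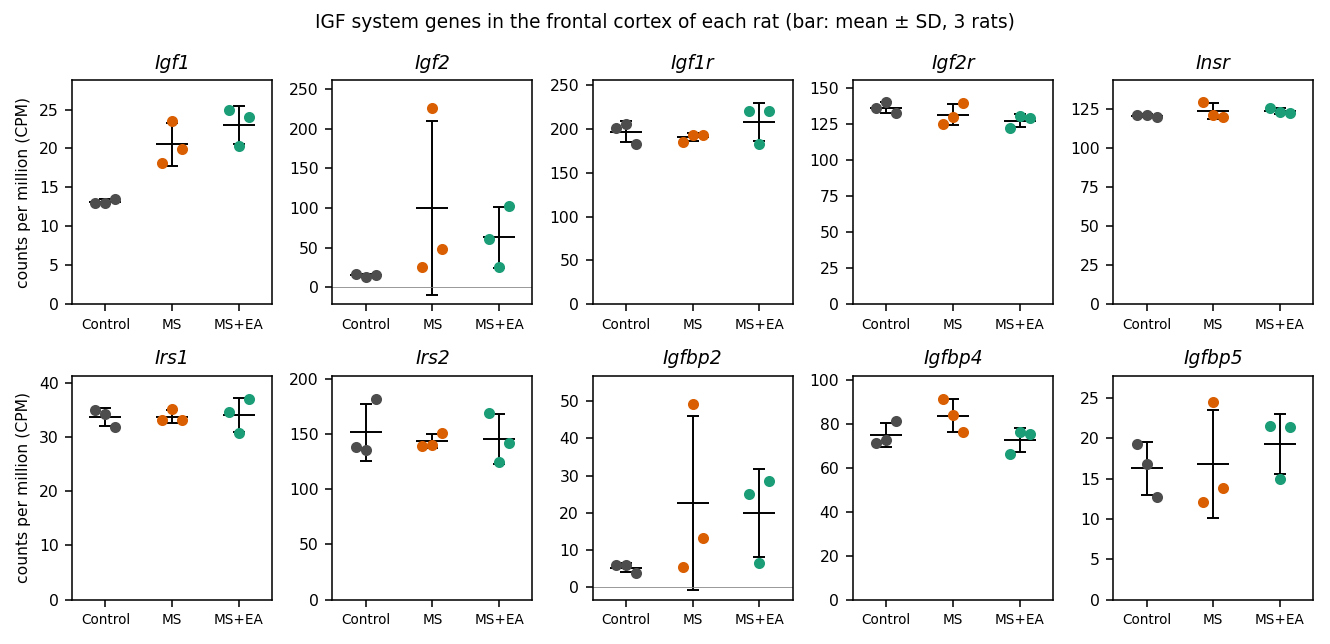
Level of each IGF system gene in CPM (vertical axis, linear) in the Control, MS and MS+EA groups (horizontal axis), with 1 point per rat, a horizontal bar at the mean and whiskers for the SD of 3 rats. The Igf1 points of MS and MS+EA rats, 18.1 to 24.9 CPM, lie above the Control points at 13.0 to 13.5 CPM, whereas the spread of Igf2 and Igfbp2 in the MS group comes from rat B4.

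**Figure D2:**
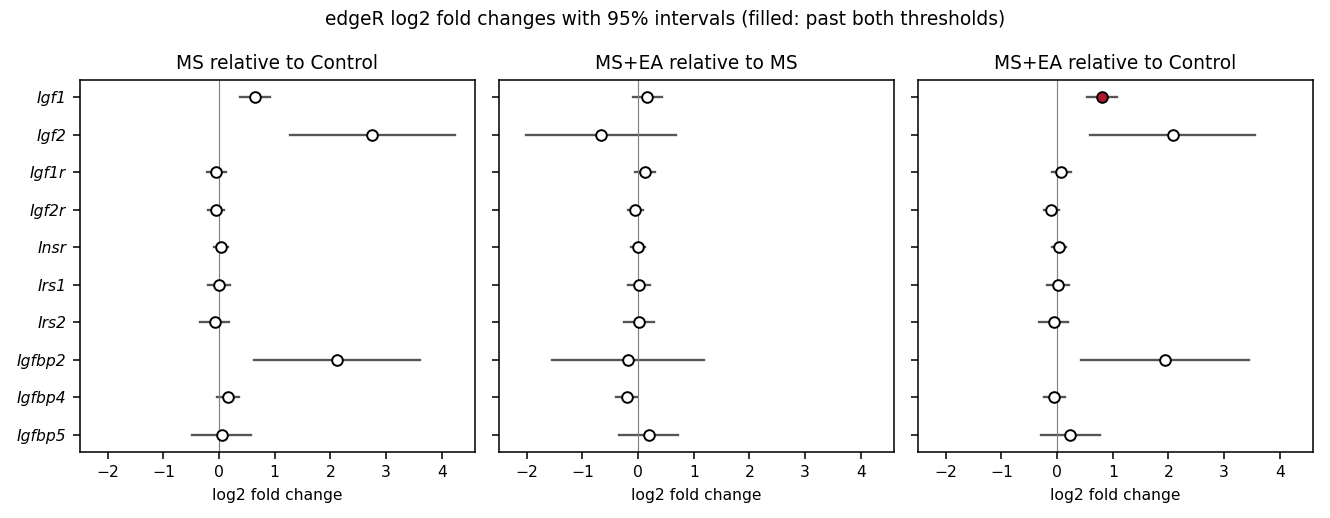
Log2 fold change (horizontal axis) of each member (vertical axis) in the 3 comparisons, from the edgeR fit of all 9 rats. Points are estimates, lines are 95% intervals and the filled point is the gene past both thresholds, Igf1 at 0.81 in MS+EA relative to Control.

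Igf1 was higher in every MS and MS+EA rat than in every Control rat. Its level was 13.0, 13.0 and 13.5 CPM in Control rats A1, A2 and A6, 18.1, 23.5 and 19.96 CPM in MS rats B3, B4 and B6, with 24.9, 20.3 and 24.0 CPM in MS+EA rats C3, C10 and C16. The Control rats lay within a narrow band, and the MS and MS+EA ranges overlapped each other. The means were 13.2 ± 0.269, 20.5 ± 2.74 and 23.1 ± 2.44 CPM (SD, n = 3 rats each), resting on 214 to 376 reads per rat. Igf1 rose in MS+EA rats relative to Control, with a log2 fold change of 0.81 (SE 0.124, 95% interval 0.54 to 1.08, edgeR adjusted p = 0.00745). In MS rats relative to Control the log2 fold change was 0.64 (SE 0.124, interval 0.37 to 0.91), a fold of 1.56, with an edgeR adjusted p of 0.108. DESeq2 gave an adjusted p of 0.00371 for the same difference, so this call depends on the tool. Igf1 had also been among the genes that the study listed for MS relative to Control on these samples. MS+EA and MS rats differed by 0.17 (interval -0.10 to 0.43, edgeR adjusted p = 0.598), which leaves differences in either direction within the interval.

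Summed markers of microglia, interneurons, astrocytes and endothelium lay nearer to their Control means than Igf1 did, whereas those of leptomeninges and blood moved more widely. The leptomeningeal sum was at 125% to 843% of its Control mean in MS rats and at 125% to 468% in MS+EA rats. Igf1 was at 138% to 178% of the Control mean in MS rats and at 154% to 189% in MS+EA rats. The 8 microglial markers were at 89.2% to 101% and at 77.2% to 102% of their Control mean, and the 7 interneuron markers at 99.1% to 120% and at 92.1% to 116%. Those of the 7 astrocyte markers were 99.7% to 108% and 87.8% to 107%. Endothelial markers (6 genes) were at 116% to 133% in MS rats, above every Control rat, and at 97.9% to 121% in MS+EA rats. The 3 blood markers also had a higher sum in MS rats, 35.1 to 53.1 CPM, than in Control rats, 15.9 to 30.2 CPM, with 27.3 to 58.5 CPM in MS+EA rats. Mean blood sums were 24.2 CPM in Control, 45.0 CPM in MS and 43.6 CPM in MS+EA rats. The part of endothelial and blood markers in the Igf1 difference was not tested. MS rat B3 and MS+EA rat C10 had the lowest leptomeningeal sums of their groups, 69.5 and 69.2 CPM. Both lay above the 62.6 CPM of Control rat A1, the highest Control sum. Their Igf1 levels of 18.1 and 20.3 CPM were the lowest of their groups and above every Control rat. The part of leptomeningeal RNA in the Igf1 difference was not tested. Without rats B4 and C16, an omission chosen after the data were seen, Igf1 had a log2 fold change of 0.78 in MS+EA relative to Control (edgeR adjusted p = 0.0162) and of 0.53 in MS relative to Control (adjusted p = 0.369). In bulk RNA, more cells of a type and more RNA per cell cannot be told apart.

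**Figure D3:**
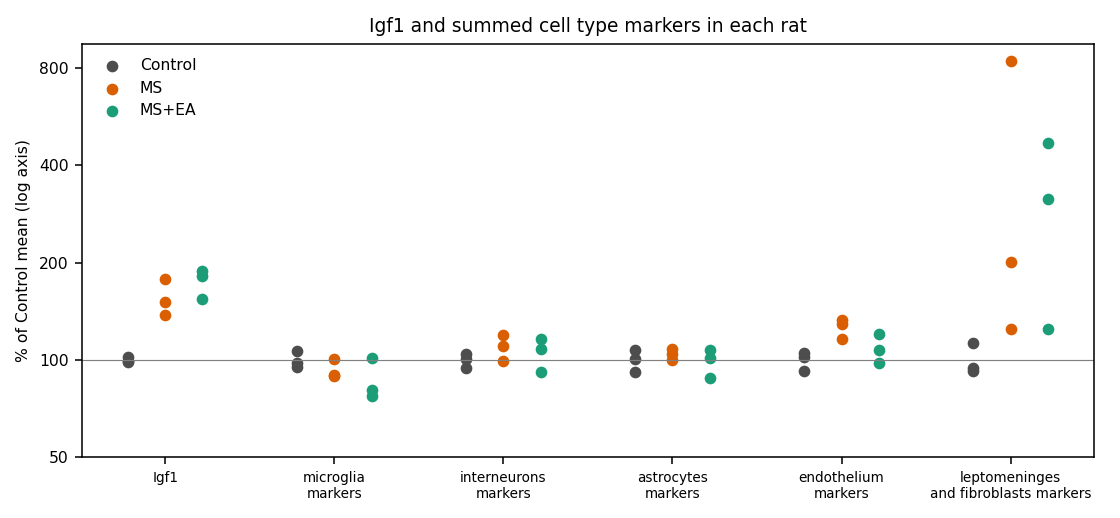
Igf1 and the summed markers of 5 cell types (horizontal axis) in each rat, as a percent of the mean of the Control rats (vertical axis, log scale), with 1 point per rat and colours for the groups. Igf1 reaches 138% to 189% in MS and MS+EA rats, and astrocyte, interneuron and microglial markers stay between 77.2% and 120%. Endothelial markers lie at 116% to 133% in MS rats and at 97.9% to 121% in MS+EA rats. Leptomeningeal markers spread up to 843%.

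Igf2 was higher in MS and MS+EA rats than in Control rats, by amounts that differed several-fold from rat to rat. Its level was 16.2, 12.9 and 15.3 CPM in Control rats A1, A2 and A6, 25.5, 226 and 48.5 CPM in MS rats B3, B4 and B6, with 60.8, 25.5 and 102 CPM in MS+EA rats C3, C10 and C16. All 6 separated rats lay above the Control rats, B4 stood far above the rest, and the MS and MS+EA ranges overlapped. MS relative to Control gave a log2 fold change of 2.75 (SE 0.683, 95% interval 1.27 to 4.23, edgeR adjusted p = 0.164) and MS+EA relative to Control one of 2.08 (SE 0.682, interval 0.60 to 3.56, adjusted p = 0.0937), and neither passed. MS+EA relative to MS gave -0.67 (interval -2.02 to 0.67, adjusted p = 0.693). Without rat B4, Igf2 had a log2 fold change of 1.32 in MS relative to Control (adjusted p = 0.488) and of 0.77 in MS+EA relative to MS (adjusted p = 0.624), with the sign turned, while MS+EA relative to Control gave 2.09 and passed (adjusted p = 0.0134). Without MS+EA rat C16 that last value was 1.54 (adjusted p = 0.265).

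Leptomeningeal markers moved with Igf2. Of the 11 markers, 11 had a positive log2 fold change in MS relative to Control, with a median of 2.21 against -0.0014 over all tested genes. An unadjusted p under 0.05 was found for 10, beside 10.6% of all genes. In MS+EA relative to Control 10 of 11 were positive with a median of 1.69, against 0.0055 over all genes. An unadjusted p under 0.05 was found for 7, beside 22.5% of all genes. In both comparisons 0 of 11 passed both thresholds, beside 0.0238% and 1.37% of all genes. The range of the sum was 51.4 to 62.6 CPM in Control, 69.5 to 468 CPM in MS and 69.2 to 260 CPM in MS+EA rats, with no marker of the list at 0 in every rat, and rats B4, C16, C3 and B6 led in that order for the sum as for Igf2. Divided by the sum, Igf2 was 0.251 to 0.291 in Control rats, 0.368 to 0.482 in MS rats and 0.348 to 0.393 in MS+EA rats. Against 10 of the markers taken singly, the ratio of Igf2 was free of overlap and higher in MS than in Control rats for 6 and in MS+EA than in Control rats for 4. Such ratios were not obtained for other genes, so these counts have no background. Dcn, counted in both, itself had means of 10.3 CPM in Control, 12.4 CPM in MS and 10.3 CPM in MS+EA rats. The ratios to Col3a1, Slc6a13, Slc13a4 and Fmod overlapped between MS and Control rats. Those to Col1a1, Col1a2, Col3a1, Slc6a13, Aldh1a2 and Fmod overlapped between MS+EA and Control rats. The part of leptomeningeal RNA in the Igf2 difference was not tested. The 7 choroid plexus markers summed to 2.36 to 3.54 CPM in Control, 2.92 to 19.6 CPM in MS and 1.81 to 6.31 CPM in MS+EA rats, with Otx2 at 0 in every rat. Of the 3 that were tested, 3 were higher in MS than in Control rats, with a median log2 fold change of 1.38. Of these, 2 had an unadjusted p under 0.05, beside 10.6% of all genes. In MS+EA relative to Control 2 of 3 were higher, 1 with an unadjusted p under 0.05, beside 22.5% of all genes. The part of choroid plexus RNA in the Igf2 difference was not tested.

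**Figure D4:**
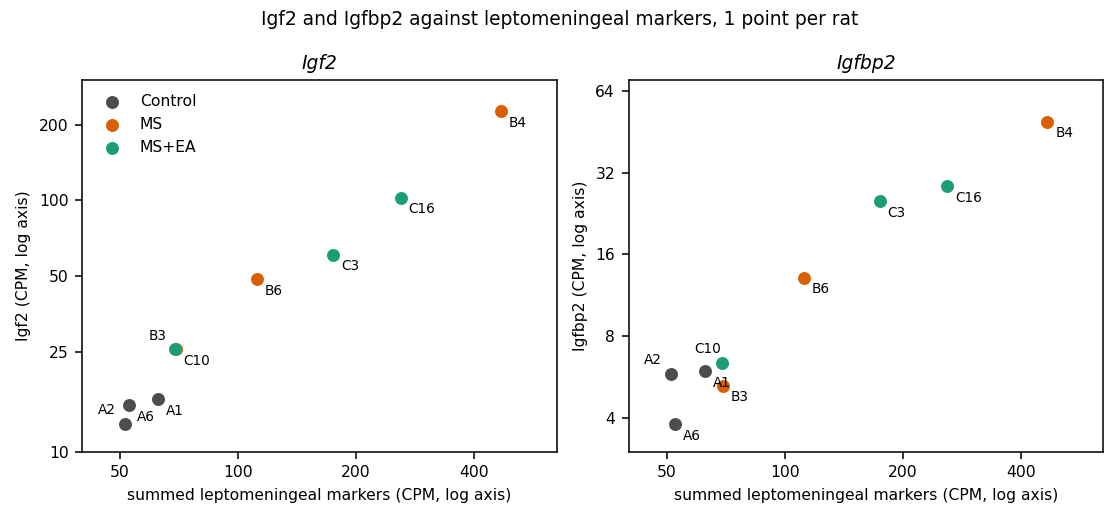
Igf2 (left) and Igfbp2 (right) in CPM on the vertical log axes against the summed CPM of 11 leptomeningeal and fibroblast markers on the horizontal log axes, with 1 labelled point per rat and colours for the groups. Both genes are highest in rat B4, at 226 and 49.2 CPM, followed by C16, C3 and B6, and the Control rats lie at the lower left.

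Around the Igf2 locus, H19, the maternally expressed non-coding RNA beside Igf2, had 0 reads in each Control rat. It had 10 reads in MS rat B3, 3 in B4 and 1 in B6, and 3 reads in MS+EA rats C3 and C10 and 5 in C16. These counts are near the detection floor of 3 reads, and H19 did not pass the filter on low counts. Mir483, a microRNA gene within Igf2, had 0 reads in all 9 rats. LOC102548568, which overlaps the end of Igf2 in the GRCr8 annotation, had at most 8 reads, and reads in such an overlap cannot be assigned with certainty where the strand setting of the counting is not known. Of the Igf2 mRNA-binding proteins, Igf2bp3 alone was tested, with 10 to 15 reads in Control, 4 to 7 in MS and 8 to 21 in MS+EA rats. The log2 fold change of Igf2bp3 in MS relative to Control was -1.32 (edgeR adjusted p = 0.387), and it was 1.80 in MS+EA relative to MS (adjusted p = 0.243).

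The receptors showed no member past the thresholds. Igf1r, the tyrosine kinase that binds both IGFs, was at 183 to 206 CPM in Control, 186 to 194 CPM in MS and 182 to 221 CPM in MS+EA rats. The 95% intervals of its log2 fold changes lay between -0.22 and 0.30 over the 3 comparisons. Igf2r, which clears IGF2, was at 136, 140 and 133 CPM in Control rats A1, A2 and A6, 125, 130 and 139 CPM in MS rats B3, B4 and B6, with 122, 130 and 129 CPM in MS+EA rats C3, C10 and C16. MS+EA rats were below the Control rats without overlap, by a log2 difference of -0.10 (interval -0.24 to 0.04, edgeR adjusted p = 0.393). Insr, the insulin receptor, was at 121, 121 and 120 CPM in Control rats, 130, 121 and 120 CPM in MS rats, and 126, 123 and 122 CPM in MS+EA rats, in the same order of rats. It was free of overlap between MS+EA and Control rats by a margin within 1 CPM, with a log2 fold change of 0.03 (interval -0.09 to 0.16, adjusted p = 0.781). Insulin transcripts were under the detection floor of 3 reads, with 0 reads for Ins1 in every rat and at most 2 reads for Ins2.

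Irs1 and Irs2, the adaptors that link both kinase receptors to PI3K, overlapped in all comparisons. Irs1 was at 31.8 to 35.0 CPM in Control, 33.1 to 35.1 CPM in MS and 30.7 to 37.0 CPM in MS+EA rats, and its intervals lay between -0.19 and 0.21. Irs2 was at 135 to 181 CPM, 139 to 151 CPM and 125 to 169 CPM in the same order, with intervals between -0.34 and 0.28.

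Among the binding proteins, Igfbp2 followed the uneven pattern of Igf2. Its level was 5.94, 5.79 and 3.79 CPM in Control rats A1, A2 and A6, 5.25, 49.2 and 13.1 CPM in MS rats B3, B4 and B6, with 25.1, 6.37 and 28.5 CPM in MS+EA rats C3, C10 and C16. MS rat B3 lay within the Control range and B4 far above it, and all MS+EA rats were above the Control rats, C10 by the least. MS relative to Control gave a log2 fold change of 2.11 (SE 0.688, interval 0.62 to 3.60, edgeR adjusted p = 0.277) and MS+EA relative to Control one of 1.94 (SE 0.693, interval 0.43 to 3.44, adjusted p = 0.119). Without rat B4 the first was 0.82 (adjusted p = 0.800), and MS+EA relative to MS turned from -0.18 to 1.13. The second was then 1.94 and passed (adjusted p = 0.0341), while without rat C16 it was 1.60 (adjusted p = 0.276). Divided by the leptomeningeal sum, Igfbp2 was 0.0721 to 0.113 in Control, 0.0756 to 0.117 in MS and 0.0921 to 0.144 in MS+EA rats, with overlap in every comparison. Against 10 of the markers taken singly, the Igfbp2 ratio was free of overlap and higher than in Control rats for 1 in MS and for 3 in MS+EA rats. These counts have no background over other genes either.

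Igfbp4, a binding protein that holds IGFs back from their receptors, was at 71.1, 72.4 and 81.1 CPM in Control rats A1, A2 and A6, 91.3, 83.7 and 76.0 CPM in MS rats B3, B4 and B6, with 66.3, 76.1 and 75.3 CPM in MS+EA rats C3, C10 and C16. MS rat B3 was highest and MS+EA rat C3 lowest, and MS rat B6 fell just below the highest MS+EA rat, so the groups overlapped. The log2 difference was 0.16 in MS relative to Control (interval -0.03 to 0.35, edgeR adjusted p = 0.539) and -0.21 in MS+EA relative to MS (interval -0.40 to -0.01, adjusted p = 0.369). Igfbp5, the neighbour of Igfbp2 on the chromosome and a binding protein that attaches to matrix, was at 12.7 to 19.3 CPM in Control, 12.1 to 24.5 CPM in MS and 14.9 to 21.5 CPM in MS+EA rats. Its groups overlapped in all comparisons, with intervals from -0.48 to 0.77.

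Genes with a pattern like that of Igf1 or Igf2 were ranked by Pearson correlation of log2 CPM over the 9 rats, as a description in which every point is a library and the groups differ in depth. Tgfbr1, a receptor of TGF-beta, was nearest to Igf1 (r = 0.981, and 0.966 over the 7 rats without A1 and A2). Control rat A6 stayed among these 7, so the difference between groups still enters the second value. Maf, a transcription factor (0.957), Manea, a mannosidase (0.955), Lepr, the leptin receptor (0.951), and Tmtc3 (0.951) followed. Slc22a8, an organic anion transporter, was nearest to Igf2 (0.992, and 0.974 over the 7 rats without B4 and C16, which keep all Control rats). The next were Slc13a4 (0.986), a sulfate transporter that is itself in the leptomeningeal list, Mrgprf (0.985), Col4a6, a basement membrane collagen (0.985), and Dab2 (0.983). Igfbp2 ranked 38th for Igf2 (r = 0.958), and Igf2 ranked 229th for Igf1 (0.858).

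Other genes of the pathway came from 8 lists with 88 genes, of which 87 were in the table and 75 were tested. In each comparison 0 of the 75 passed both thresholds. In MS relative to Control 12 had an unadjusted p under 0.05, 8 higher and 4 lower, beside 10.6% of all tested genes, and the median of the 75 log2 fold changes was 0.01. In MS+EA relative to MS 11 did, 3 higher and 8 lower, beside 12.4% of all genes (median -0.05), and in MS+EA relative to Control 21 did, 8 higher and 13 lower, beside 22.5% (median 0.01). In the last comparison 6 genes passed the adjusted p without the fold threshold, against 5.40% of all tested genes.

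**Figure D5:**
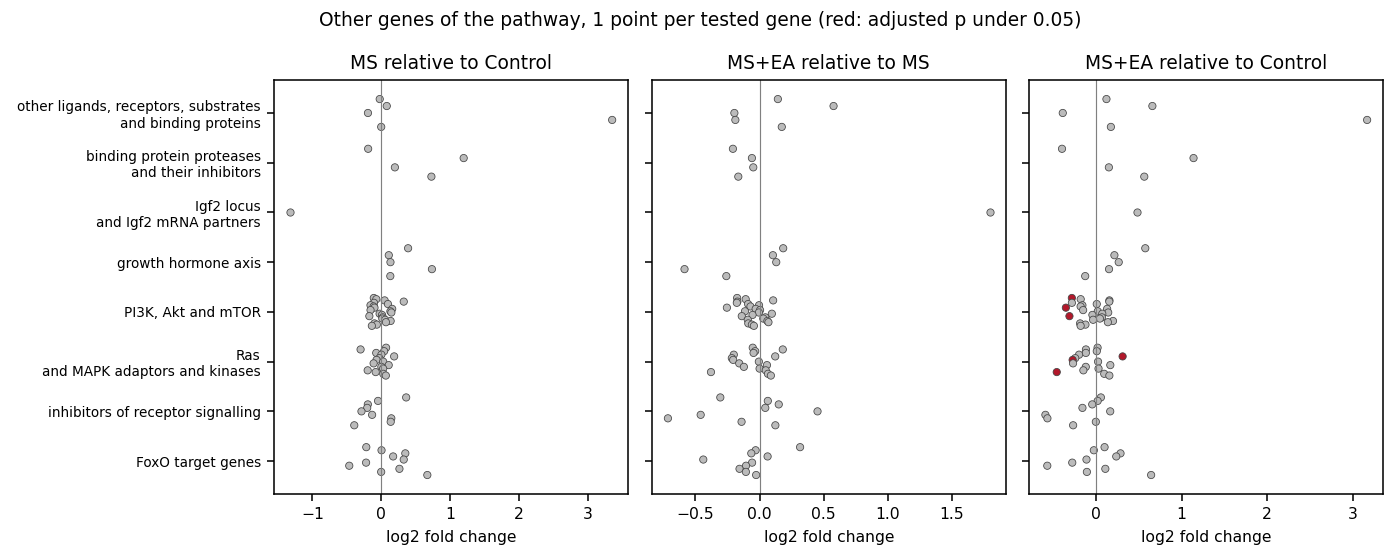
Log2 fold change (horizontal axes, with a scale of their own in each panel) of the 75 tested genes in 8 pathway lists (vertical axis) in the 3 comparisons, 1 point per gene. Red marks an edgeR adjusted p under 0.05, reached by 6 genes of the PI3K and Ras lists in MS+EA relative to Control and by 0 in the other panels.

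In the growth hormone axis, which drives Igf1 in liver, Ghr, the growth hormone receptor, was at 11.5 to 13.0 CPM in Control, 13.5 to 18.95 CPM in MS and 14.8 to 20.8 CPM in MS+EA rats. Both separated groups were above the Control rats, with log2 fold changes of 0.39 in MS (edgeR adjusted p = 0.390) and 0.58 in MS+EA rats (adjusted p = 0.0521). Gh1, the hormone, had 0 reads in every rat. Jak2, the kinase bound to the receptor, gave 0.22 in MS+EA relative to Control (adjusted p = 0.204). Stat5a, the transcription factor downstream of it, gave 0.74 in MS relative to Control (adjusted p = 0.260) and -0.59 in MS+EA relative to MS (adjusted p = 0.334). Stat5b gave -0.26 in the latter (adjusted p = 0.300). Groups did not overlap for 2 genes of the list in MS relative to Control (Ghr and Stat5a), beside 17.6% of all genes. The same held for 2 in MS+EA relative to MS (Stat5a and Stat5b), beside 17.9%. Of the 5 tested genes of this list, 2 had an unadjusted p under 0.05 in each comparison, beside 10.6% of all genes in MS relative to Control, 12.4% in MS+EA relative to MS and 22.5% in MS+EA relative to Control.

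In the list of PI3K, Akt and mTOR genes 3 of 24 passed the adjusted p in MS+EA relative to Control, all lower. They were the kinase Gsk3a at -0.35 (edgeR adjusted p = 0.0252), the PI3K regulatory subunit Pik3r2 at -0.31 (adjusted p = 0.0396) and the kinase Akt1 at -0.28 (adjusted p = 0.0479). In MS+EA relative to MS, 4 of the 24 were lower without overlap and 0 higher, beside 17.9% of all genes in either direction. These were Gsk3a at -0.25 (edgeR adjusted p = 0.249), Akt1 at -0.17 (adjusted p = 0.369), Pik3r2 and Pdpk1. In MS relative to Control the smallest p values belonged to Mtor at -0.15 (adjusted p = 0.447), Pik3r2 at -0.17 and the kinase Pdpk1 at 0.13 (adjusted p = 0.461 for both).

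The list of Ras and MAPK adaptors and kinases held another 3 of 17, of which Shc3 and Map2k2 are described. Shc3, an adaptor found mainly in neurons, gave -0.46 in MS+EA relative to Control (edgeR adjusted p = 0.0157) and -0.38 relative to MS (adjusted p = 0.195). The MAPK kinase Map2k2 gave -0.27 (adjusted p = 0.0418) and -0.21 (adjusted p = 0.290), and its relative Map2k1 gave -0.22 relative to MS (adjusted p = 0.300). Summed markers of cortical excitatory neurons were 3386 to 3524 CPM in MS+EA rats, below the 3970 to 4025 CPM of MS rats and the 3895 to 4529 CPM of Control rats, and the MS+EA libraries were the shallowest. The part of either in these differences was not tested.

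The remaining lists held few genes with an unadjusted p under 0.05. Insrr, the orphan relative of the insulin receptor, had 0, 4 and 0 reads in Control rats A1, A2 and A6, 1 read in MS rat B3, 31 in B4 and 11 in B6, and 5, 2 and 24 reads in MS+EA rats C3, C10 and C16, so B4 and C16 led again. Htra1, a protease that cuts binding proteins, gave -0.40 in MS+EA relative to Control (edgeR adjusted p = 0.121), and Sh2b2, an adaptor of the insulin receptor, gave -0.59 (adjusted p = 0.143). Ptpn2, a phosphatase of the insulin receptor, was lower in MS than in Control rats at -0.29 (adjusted p = 0.380) and higher in MS+EA than in MS rats at 0.45 (adjusted p = 0.207). Its groups did not overlap in either comparison, as for 17.6% and 17.9% of all tested genes. Among FoxO target genes, the cell cycle inhibitor Cdkn1b gave 0.35 in MS (adjusted p = 0.260) and 0.29 in MS+EA rats relative to Control (adjusted p = 0.145). Txnip, the thioredoxin inhibitor, gave 0.67 (adjusted p = 0.441) and 0.64 (adjusted p = 0.211), and Bcl6, a repressor, gave 0.32 in MS+EA relative to MS (adjusted p = 0.398).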

How the data were processed

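Total RNA from the frontal cortex underwent rRNA depletion and sequencing on an Illumina HiSeq instrument. Reads were filtered with FastQC and mapped with HISAT2 2.0.4 to Rnor_6.0, per the submitters' notes and the study's methods. The authors deposited whole-number counts per gene without normalization. The counting program, its strand setting and its treatment of reads with several locations are not given in the sources used here, and neither are gene lengths, so levels were compared between rats and not between genes.

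Groups were taken from the sample labels. CPM is the count of a gene scaled to a TMM-normalized library size of 1000000 (plain totals left the same members free of overlap). Counts were analysed with edgeR 4.0.16 in R 4.3.3, with TMM scaling, filterByExpr (minimum count 10), 1 mean per group over all 9 rats and the quasi-likelihood F test, with Benjamini-Hochberg adjustment over 16837 genes. The thresholds for a call were 0.05 for the adjusted p and 1.5 for the fold change. The SE was obtained from the log2 fold change and the square root of the F statistic. The biological coefficient of variation was 12.7%. An exact permutation of 3 against 3 rats cannot give a two-sided p under 0.1 and was not used. In a test on simulated data for MS relative to Control, edgeR recovered 87 of 100 genes changed by 1 and 100 of 100 changed by 2 on the log2 scale, with 6 false calls among 16605 genes. The changed genes were drawn from those above a minimum mean count. No change below 1 was simulated, so differences as small as those of Igf1 are not covered. Alternatives were DESeq2 1.42.0, limma-voom (limma 3.58.1), other scalings and filters, fewer rats and the omission of each rat. Tables and plots used Python 3.11.15, pandas 2.3.3, numpy 2.4.6 and matplotlib 3.10.9. Promoter sequences are from RefSeq (GRCr8), whereas the counts rest on Rnor_6.0.

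The members, the gene lists and the tests were chosen with earlier results of these data known. The text names every member, gives the value in every rat for members free of overlap or with an unadjusted p under 0.05 in at least 1 comparison, names from each pathway list the genes past the thresholds and up to 3 genes per comparison with the smallest unadjusted p under 0.05, and names the 5 genes most like Igf1 and Igf2. Pappa2 was not matched by symbol. A single gene that the rule names is not reported here. The edgeR p-values rest on the spread between rats within groups, 3 rats per group, pooled over the 3 groups. A wide spread in MS rats therefore also enters MS+EA relative to Control. Rats of a group may share litters.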

Additional observations from a re-analysis of the deposited data

How the results depend on the processing

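Of 510 member values over all alternatives, 460 kept their direction and their side of the thresholds, 12 newly passed, 0 were lost and 38 changed sign. Igf1 in MS+EA relative to Control alone had passed in the main analysis, so no other value could be lost. The sign changes touched 12 of 30 values, of which the largest was -0.67, for Igf2 in MS+EA relative to MS. Igf1 in MS+EA relative to Control passed under every alternative run, with edgeR adjusted p between 0.00492 and 0.0423 when single rats were left out and log2 fold changes between 0.75 and 0.89. No paired analysis was possible because each group holds other animals and no label pairs them.

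In MS relative to Control, 1 member was called by DESeq2 (Igf1) and 3 with a filter of at least 1 count (Igf1, Igf2 and Igfbp2), against 0. In MS+EA relative to Control, against 1, the number was 3 with a filter of at least 1 count and 3 in a fit of the 6 rats compared (Igf1, Igf2 and Igfbp2), 2 without rats B4 and C16 (Igf1 and Igf2), and 1 to 3 without single rats, with 2 without B3 (Igf1 and Igf2) and 3 without B4 (Igf1, Igf2 and Igfbp2). Over all genes, MS relative to Control gave 4 calls, and 69 by DESeq2, 2 by limma-voom, 207 with at least 1 count, 11 with 6 rats and 2 to 22 without single rats (2 without A1 or A2, 22 without B3, 9 without C3, 10 without C10). MS+EA relative to MS gave 3, and 13 by DESeq2, 1 by limma-voom, 72 with at least 1 count, 0 with at least 10 counts in every rat, 1 with 6 rats and 1 to 4 without single rats (1 without A1 or C16). MS+EA relative to Control gave 230, and 910 without the fold threshold, 469 with at least 1 count and 71 to 304 without single rats (71 without A1, 121 without C10). The cause was not tested.

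Signs turned near 0 for Irs1 in MS relative to Control (-0.0018 with DESeq2 size factors, -0.011 with total counts, -0.0024 by DESeq2, -0.0042 with at least 1 count, -0.026 without B4 and C16) and for Insr in MS+EA relative to MS (-0.0025 by DESeq2, -0.00040 without B4 and C16). Igfbp5 in MS relative to Control, at 0.05, turned to -0.019 by limma-voom and to -0.33 without B4 and C16. Igfbp2 in MS+EA relative to MS turned to 0.13 by limma-voom and to 0.79 without B4 and C16, where Igf2 turned to 0.23 and Irs1 to -0.017, and Irs1 in MS+EA relative to Control to -0.042. Without single rats, MS relative to Control ranged from -0.0026 to 0.056 for Insr, -0.036 to 0.031 for Irs1, -0.16 to 0.068 for Irs2 and -0.33 to 0.24 for Igfbp5. MS+EA relative to MS ranged from -1.21 to 0.77 for Igf2, -0.022 to 0.036 for Insr, -0.050 to 0.082 for Irs1, -0.10 to 0.12 for Irs2 and -0.65 to 1.13 for Igfbp2. MS+EA relative to Control ranged from -0.047 to 0.085 for Irs1, -0.18 to 0.094 for Irs2 and -0.083 to 0.021 for Igfbp4. Depth limits Igfbp2 most among the members named in full, with 61 reads in the lowest library.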
